A study of Mus musculus with 11 samples.

Results

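Solute carriers are the membrane proteins that move nutrients, ions, metals, nucleosides and metabolites into, out of and within cells. The genes described here are the 172 of 362 solute carrier symbols (Slc followed by a digit) that reached at least 5 CPM (each gene's count relative to the total of its library) in at least 1 of 2 RNA-seq libraries of T follicular regulatory (Tfr) cells, labelled KO and WT for the gene Sostdc1, in a table of 29224 genes of which 10194 reached the same level. The genes were thus chosen by their CPM in these libraries, so the fact that they are expressed is not a finding. Of the 172, 155 reached the minimum in both libraries, 6 only in the KO-labelled library and 11 only in the WT-labelled library, and 190 symbols did not reach it. Just inside the minimum were Slc18a2 at 5.004 CPM in the KO-labelled library and 3.15 CPM in the WT-labelled library, Slc35f5 at 2.56 and 5.37 CPM, and Slc1a1 at 0.936 and 5.48 CPM, in the same order. Just outside it were Slc16a4 at 2.77 CPM in the KO-labelled library and 4.76 CPM in the WT-labelled library, Slc35d3 at 2.63 and 4.65 CPM, and Slc17a6 at 4.14 and 1.55 CPM, in the same order. By family, 167 of the 172 encode transporters. The other 5 share only the letters of the name: Slc9a3r1 encodes a scaffold protein under the plasma membrane, Slc4a1ap an adaptor protein, Slc7a6os and Slc36a3os are genes on the opposite strand of a carrier, and Slc2a4rg-ps is a pseudogene. Counts of solute carriers, or of carriers, include these 5 unless a substrate class is named.

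Of the 11 mouse samples of the study, 3 are used. The first holds RNA of Tfr cells, sorted as CXCR5+ PD1+ GITRhi, from mice with the genotype label Sostdc1 homo (titled Sostdc1 ko, here KO); Sostdc1 is a secreted antagonist of BMP and Wnt signalling. The second holds RNA of Tfr cells sorted in the same way from WT mice. The third is a droplet single-cell library of CD44+ CD4+ T cells from mice heterozygous for the Sostdc1-EGFP reporter allele. All 3 came from draining lymph nodes of C57BL/6 mice, and age, number of animals and any pooling are not given in the labels. Each group is a single library, so conditions could not be tested. Ratios are therefore given with 95% intervals that cover counting error only, and genes are counted by a fixed size of at least 2-fold on log2(CPM + 1).

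The KO-labelled library held 27777625 counts and the WT-labelled library 18076300, so that 3 counts, the floor used here, correspond to 0.108 and 0.166 CPM, in that order. Sostdc1 itself had 458 counts in the KO-labelled library and 4 counts in the WT-labelled library, 74.5-fold more (28.9 to 275), which goes against the genotype labels; the position of the deleted part within the gene is not given in the labels. Every direction between these libraries therefore refers to the labels as given. Xist had 34234 counts in the KO-labelled library and 39 in the WT-labelled library. The Y-linked Ddx3y had 6 and 3557 in the same order, so the pair also differs in sex-linked genes. That difference coincides with the labels KO and WT, so the 2 cannot be told apart for any gene, on chromosome X or elsewhere. The 8 solute carriers on chromosome X had log2 ratios between -0.88 and 0.72, with a median of -0.09. The Tfr markers were present in both libraries, Foxp3 at 1164 CPM in the KO-labelled library and 1471 CPM in the WT-labelled library, and Cxcr5 at 62.8 and 55.7 CPM in the same order. In bulk RNA, fewer cells of a type and less RNA per cell cannot be told apart.

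T cells that leave rest take up more glucose, amino acids, iron and nucleosides, and solute carriers set much of that exchange. Slc2a1 and Slc2a3 bring in glucose, Slc16a1 and Slc16a3 carry lactate with protons, and the heterodimer of Slc7a5 with Slc3a2 exchanges large neutral amino acids such as leucine, which feeds the kinase complex mTORC1. Slc1a5, Slc38a1 and Slc38a2 carry glutamine and other small neutral amino acids, and the Slc25 family connects the mitochondrial matrix with the cytosol. Regulatory T cells are known to rely more on mitochondrial oxidation, and less on glycolysis, than conventional effector T cells.

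Promoter windows from RefSeq (GRCm38.p6; 250 bases before to 50 after each annotated start) were held for 130 of the 172 genes. Searched on both strands, with sites of one motif allowed to overlap another, the E-box CACGTG was in a window of 18.5% of the 130 genes, against 12.4% of 7846 genes at the same CPM minimum and 8.09% of all genes in the table; a gene with windows at several starts counted once, if any of them held the motif. The GC box GGGCGG was found for 80.8% of the solute carriers, against 70.8% of the expressed genes and 38.2% of all genes. The AP-1 motif TGANTCA was in 6.15% and 5.54%, and the amino acid response element TGATGCAA in 1.54% and 0.676%, of the solute carriers and the expressed genes. With GC content averaged over a gene's windows, the median was 63.1% for the 130 genes and 61.0% for the expressed genes. Across the 130 genes, promoter GC and the log2 ratio of the 2 bulk libraries had a Pearson r of -0.05, and across the 7846 genes -0.11; genes share libraries and are not independent replicates.

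The windows shown are those of Slc43a2 and Slc16a3, the carriers with the lowest log2 ratios of the KO-labelled library to the WT-labelled library, and of Slc9a9, which had the largest ratio of the Tfr to the Treg gate in single cells among the carriers that reached 20 CPM in either gate. All read 5′ to 3′ on the plus strand, and capitals mark the motif found, a GC box (or its reverse complement) in the first 3 and an AP-1 motif in the fourth. Slc43a2 has windows at 2 annotated starts, chr11:75531444-75531743, with 4 GC boxes, and chr11:75531862-75532161, with 1. The Slc16a3 window, chr11:120948817-120949116, holds 1 GC box, and the Slc9a9 window, chr9:94669642-94669941, holds 1 AP-1 motif and, at 43.7% GC, lies below the lower quartile of the 130 genes, which was 56.2%. A match is a description of the letters and not a binding site.
Slc43a2, upstream start: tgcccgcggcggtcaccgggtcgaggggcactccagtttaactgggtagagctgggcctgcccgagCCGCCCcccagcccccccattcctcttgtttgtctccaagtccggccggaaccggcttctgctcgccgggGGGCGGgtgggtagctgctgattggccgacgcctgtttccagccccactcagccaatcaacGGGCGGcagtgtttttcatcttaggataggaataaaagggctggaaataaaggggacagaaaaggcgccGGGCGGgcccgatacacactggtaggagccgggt
Slc43a2, downstream start: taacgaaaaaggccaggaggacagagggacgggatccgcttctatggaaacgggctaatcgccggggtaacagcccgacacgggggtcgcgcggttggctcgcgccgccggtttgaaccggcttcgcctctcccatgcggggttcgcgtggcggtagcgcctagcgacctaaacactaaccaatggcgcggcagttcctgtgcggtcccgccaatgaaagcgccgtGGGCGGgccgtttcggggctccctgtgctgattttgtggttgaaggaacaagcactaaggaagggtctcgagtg
Slc16a3: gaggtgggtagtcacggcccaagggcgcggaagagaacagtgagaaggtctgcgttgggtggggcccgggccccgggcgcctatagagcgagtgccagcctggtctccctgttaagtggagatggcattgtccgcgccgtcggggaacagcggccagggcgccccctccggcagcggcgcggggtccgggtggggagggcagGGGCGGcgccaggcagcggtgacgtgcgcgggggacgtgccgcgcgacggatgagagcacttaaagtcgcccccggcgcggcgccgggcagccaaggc
Slc9a9: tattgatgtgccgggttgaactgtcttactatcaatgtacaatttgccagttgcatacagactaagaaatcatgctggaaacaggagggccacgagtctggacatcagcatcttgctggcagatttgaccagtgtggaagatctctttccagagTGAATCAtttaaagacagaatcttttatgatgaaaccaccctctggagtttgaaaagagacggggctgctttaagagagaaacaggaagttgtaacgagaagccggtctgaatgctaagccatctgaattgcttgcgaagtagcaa

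In bulk Tfr cells the solute carriers together took 11289 CPM in the KO-labelled library and 11568 CPM in the WT-labelled library. Of the 172, 2 were at least 2-fold higher in the KO-labelled library, 1.16%, where 2.6% of all 10194 genes were. At least 2-fold lower in the KO-labelled library were 11 of the 172, 6.395%, where 9.12% of all genes were. The median log2 ratio was -0.08 for the solute carriers and -0.04 for all genes. TMM scaling shifted the median of all genes by 0.15 and median-of-ratios scaling by 0.22 on the log2 scale. Under either of them 4 solute carriers were higher and 6 lower, so that the higher share of those past 2-fold was 40% in place of 15.4%; for all genes this share was 22.2% with column totals, 37.1% with TMM and 45.0% with median-of-ratios scaling. Among the 13 genes past 2-fold, the scaffold gene Slc9a3r1 included, 5 had reached the CPM minimum in 1 library only. By that rule it is the library where they are higher. Another measured gene overlaps 5 of the 13 on the genome, and its reads cannot be told apart where the counting did not use strand. Of the 167 transporters alone, 2 were higher and 10 lower.

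**Figure D1:**
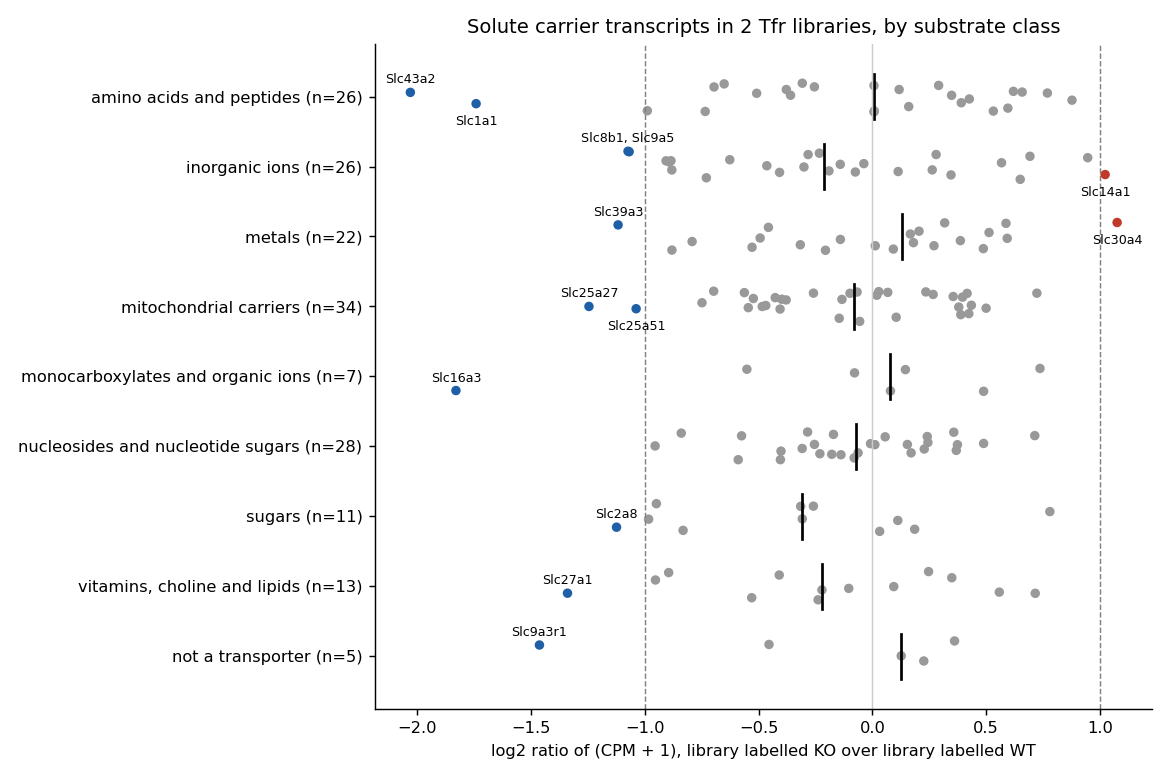
Log2 ratio of (CPM + 1), KO-labelled library over WT-labelled library (x axis), of each of the 172 genes, by substrate class (y axis, with the number of genes); each point is a gene, vertical bars are class medians, dashed lines mark 2-fold, and blue and red points lie beyond it. Slc43a2 and Slc16a3 lie farthest to the left, at -2.03 and -1.83, and the class medians lie between -0.31 and 0.13.

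Amino acid and peptide carriers numbered 26, with none higher, 2 lower and a median log2 ratio of 0.01. Slc43a2, a facilitative transporter of branched-chain and aromatic amino acids, had 17.0 CPM in the KO-labelled library and 72.7 CPM in the WT-labelled library, 4.27-fold lower (3.84 to 4.75). Its relative Slc43a1 leaned the other way, with 6.73 CPM in the KO-labelled library and 3.21 CPM in the WT-labelled library, a log2 ratio of 0.88, and passed 2-fold only under the 2 other scalings and with a pseudocount of 0.1 CPM. The pair of leucine carriers of the Slc43 family thus had ratios of opposite sign in these libraries. Slc1a1, which takes up glutamate and cysteine, had 26 counts (0.936 CPM) in the KO-labelled library and 99 counts (5.48 CPM) in the WT-labelled library; it passed the minimum through the WT-labelled library only, and overlaps Gm5822.

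Of the well-measured carriers of the cell surface in this class, Slc3a2 had 483 CPM in the KO-labelled library and 480 CPM in the WT-labelled library, and Slc1a5 had 584 and 581 CPM in the same order. Slc7a5, the partner of Slc3a2, had 251 CPM in the KO-labelled library and 192 CPM in the WT-labelled library (log2 ratio 0.39). Slc7a1, which takes up arginine and lysine, had 531 and 311 CPM in the same order, a ratio of 1.71 (1.65 to 1.76). The ratio of Slc38a1 was 1.54 (1.49 to 1.59), from 495 CPM in the KO-labelled library and 322 CPM in the WT-labelled library, whereas Slc38a2 had 199 and 183 CPM. None of these 6 reached 2-fold. Below 0 were Slc15a3, a lysosomal carrier of histidine and small peptides, with 297 CPM in the KO-labelled library and 468 CPM in the WT-labelled library (log2 ratio -0.65; it overlaps Tmem132a), and Slc7a10, a carrier of small neutral amino acids, with 2.74 and 6.42 CPM (-0.99).

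Of the 7 carriers of monocarboxylates and organic ions none was higher and 1 lower, with a median of 0.08, and it held the second-lowest ratio of all 172 genes. Slc16a3, the proton-coupled lactate exporter of glycolytic cells, had 64.5 CPM in the KO-labelled library and 232 CPM in the WT-labelled library, 3.60-fold lower (3.40 to 3.80), with Csnk1d overlapping it. Slc16a1, which carries lactate and pyruvate in either direction, had 108 CPM in the KO-labelled library and 64.6 CPM in the WT-labelled library, a ratio of 1.68 (1.57 to 1.80). The ratios of these lactate carriers lay on opposite sides of 1. Of the 11 sugar carriers none was higher and 1 lower, with a median of -0.31. Slc2a1 had 101 CPM in the KO-labelled library and 98.4 CPM in the WT-labelled library. Slc2a3, the higher-affinity glucose transporter, had 76.2 and 136 CPM in the same order, 1.79-fold lower (1.69 to 1.90), short of 2-fold, and overlaps Gm4482. Slc2a8, an intracellular hexose transporter, had 4.61 and 11.2 CPM (log2 ratio -1.12, short of 2-fold under either scaling), Slc2a9, which carries urate, had a log2 ratio of -0.95, and Slc45a4, annotated as a proton-linked sugar carrier, had -0.98. The median of the 5 Slc2 genes was -0.83 with column totals, -0.68 with TMM and -0.61 with median-of-ratios scaling. On the other side, Slc37a2, which exchanges glucose 6-phosphate for phosphate, had 67.8 CPM in the KO-labelled library and 39.1 CPM in the WT-labelled library (0.78).

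**Figure D2:**
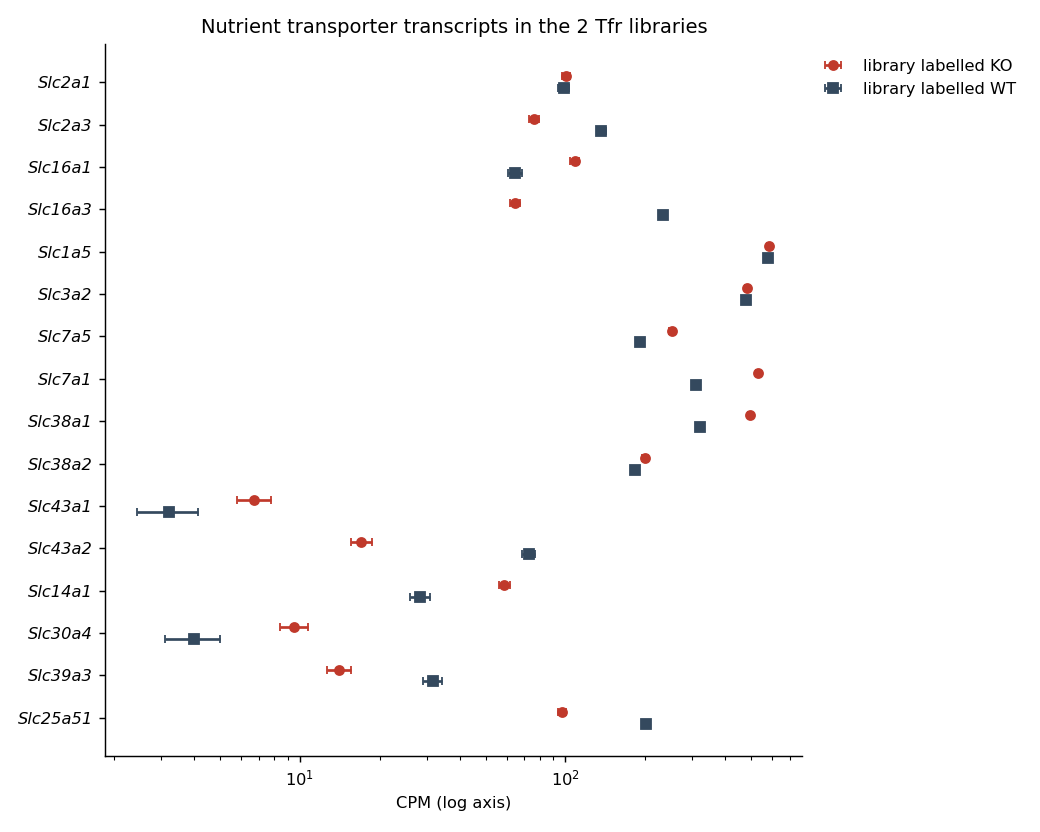
CPM (x axis, log scale) of 16 solute carriers (y axis) in the KO-labelled library (red circles) and the WT-labelled library (dark squares); bars are exact Poisson 95% intervals, which cover counting error only. Slc1a5 and Slc3a2 coincide, at 584 and 483 CPM in the KO-labelled library against 581 and 480 CPM in the WT-labelled library, whereas Slc16a3 and Slc43a2 lie apart.

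Among the 22 metal carriers 1 was higher and 1 lower, with a median of 0.13. Slc30a4, which moves zinc into vesicles, had 9.50 CPM in the KO-labelled library and 3.98 CPM in the WT-labelled library, a ratio of 2.39 (1.83 to 3.14), and overlaps 4930417H01Rik. Slc39a3, which imports zinc into the cytosol, had 14.04 CPM in the KO-labelled library and 31.6 CPM in the WT-labelled library, 2.25-fold lower (1.98 to 2.57), a change that did not reach 2-fold on the log2(CPM + 1) scale under either scaling. By family, the 6 zinc exporters of Slc30 had a median of 0.29, with 5 above 0, and the 10 importers of Slc39 had -0.18, with 5 above 0. The Slc30 median kept its sign under TMM and median-of-ratios scaling, and the Slc39 median turned to 0.04 under median-of-ratios scaling. Slc11a2, the ferrous iron importer, had 58.4 CPM in the KO-labelled library and 41.4 CPM in the WT-labelled library (0.49), and the magnesium carrier Slc41a1 had 346 and 305 CPM (0.18).

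The 26 carriers of inorganic ions, among which urea transport was placed, had 1 higher, 2 lower and a median of -0.21. Slc14a1, the urea channel of red cells and kidney, had 1634 counts (58.8 CPM) in the KO-labelled library and 514 counts (28.4 CPM) in the WT-labelled library, a ratio of 2.07 (1.87 to 2.29). Slc8b1, the sodium and calcium exchanger of the inner mitochondrial membrane, had 10.4 CPM in the KO-labelled library and 23.0 CPM in the WT-labelled library, and Slc9a5, a sodium and proton exchanger that overlaps Plekhg4, had 7.60 and 17.0 CPM, both with a log2 ratio of -1.07. Under TMM or median-of-ratios scaling neither Slc8b1 nor Slc9a5 reached 2-fold, and the class had 2 higher, Slc26a10 with Slc14a1, and 0 lower. The 6 Slc12 genes, whose products move chloride with potassium or sodium, had 5 ratios below 0 and a median of -0.68 with column totals, -0.53 with TMM and -0.46 with median-of-ratios scaling. Slc20a1, a sodium and phosphate cotransporter, had 109 CPM in the KO-labelled library and 66.8 CPM in the WT-labelled library (0.69). The class median of -0.21 turned to 0.003 under median-of-ratios scaling.

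The largest class was the 34 mitochondrial carriers of the Slc25 family, with none higher, 2 lower and a median of -0.08 that turned to 0.06 under TMM and 0.13 under median-of-ratios scaling. Slc25a51, which brings NAD into mitochondria, had 97.0 CPM in the KO-labelled library and 200.4 CPM in the WT-labelled library, 2.07-fold lower (1.96 to 2.17), and was short of 2-fold under either scaling. Slc25a27, an uncoupling-protein homologue, had 3.06 CPM in the KO-labelled library and 8.63 CPM in the WT-labelled library. In the other direction, Slc25a5, an exchanger of ADP and ATP encoded on chromosome X, had 390 CPM in the KO-labelled library and 236 CPM in the WT-labelled library (0.72), whereas its relative Slc25a4 had 81.1 and 89.1 CPM (-0.13). The mitochondrial phosphate carrier Slc25a3 had 751 and 638 CPM (0.23).

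None of the 28 nucleoside and nucleotide-sugar carriers reached 2-fold in either direction. Their median was -0.07, and 0.08 under TMM and 0.15 under median-of-ratios scaling. Slc29a1, the equilibrative nucleoside transporter of the plasma membrane, had 59.3 CPM in the KO-labelled library and 35.7 CPM in the WT-labelled library (0.71), and the purine nucleobase carrier Slc43a3 had 29.9 and 36.6 CPM (-0.28). Slc35e4, with 4.68 CPM in the KO-labelled library and 10.0 CPM in the WT-labelled library, had the lowest ratio of the class, -0.96. Of the 13 carriers of vitamins, choline and lipids 1 was lower, Slc27a1, which takes up long-chain fatty acids, with 2.63 CPM in the KO-labelled library and 8.19 CPM in the WT-labelled library. The riboflavin transporters Slc52a3 and Slc52a2 had log2 ratios of -0.95 and -0.90, and Slc5a6, which takes up biotin and pantothenate, had 0.72. Outside the transporters, the scaffold gene Slc9a3r1 had 165 CPM in the KO-labelled library and 458 CPM in the WT-labelled library, 2.77-fold lower (2.67 to 2.87).

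Other transport and nutrient-sensing genes were counted in the same way, beside 2.6% of all genes higher and 9.12% lower. Of 24 ATP-binding cassette transporters that passed the minimum, 1 was higher, the drug exporter Abcb1b at 56.7 CPM in the KO-labelled library and 24.1 CPM in the WT-labelled library, and 6 were lower. The lower ones were Abca7 at 52.5 and 270 CPM in the same order, the sterol exporter Abcg1 at 47.5 and 131 CPM, and Abca2, Abcc10, Abca5 and Abcc3, and the list's median was -0.65. Among 14 genes of the sodium pump and of proteins that regulate transporters 1 was higher and 2 lower, the arrestin-domain genes Arrdc4 and Arrdc3, with a median of -0.21. Of 33 genes of amino acid sensing and mTORC1 none was higher and 2 lower, Tfeb, the lysosomal transcription factor, at 2.27 CPM in the KO-labelled library and 13.2 CPM in the WT-labelled library, and the leucine-sensor relative Sesn1 at 24.9 and 63.8 CPM. The 15 genes of the amino acid response had 1 higher, Atf3, and 3 lower, Cebpb at 6.26 CPM in the KO-labelled library and 58.1 CPM in the WT-labelled library, Ddit4 at 33.2 and 216 CPM, and Atf5.

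Summed marker lists were not equal in the 2 libraries. Summed over its list, the CD8, NK and gamma-delta T cell markers took 104 CPM in the KO-labelled library and 31.6 CPM in the WT-labelled library, with 2 of 3 passing genes higher, Nkg7 and Klrk1. In the single-cell library Nkg7 had 36.8 CPM in the Tfr gate and 51.6 CPM in the Treg gate, both drawn without Cd8a or Cd8b1 UMIs. Klrk1 had 0 CPM in the Tfr gate and 2.43 CPM in the Treg gate. In bulk, Nkg7 made up 80.5 CPM of the sum in the KO-labelled library and 18.4 CPM in the WT-labelled library. Cd8b1 had 12.3 and 9.63 CPM, and Cd8a, with 0.360 and 0.774 CPM, lay the other way. Trdc (1.69 and 0.774 CPM) and Ncr1 (0.720 and 0.166 CPM) lay on the same side as Nkg7, as did Tcrg-C1 and Klrb1c. The myeloid list took 102 and 81.0 CPM in the same order, with 2 of 4 higher, and the B cell list 32.2 and 27.4 CPM. The plasma cell list took 247 CPM in the KO-labelled library and 158 CPM in the WT-labelled library, of which Xbp1, which T cells also express, made up 239 and 149 CPM. Derl3 (6.08 and 3.37 CPM) and Tnfrsf17 (0.144 and 0.111 CPM) lay on the same side as Xbp1. Sdc1 (1.15 and 2.60 CPM), Jchain (0.900 and 1.49 CPM) and Mzb1 (0.612 and 0.830 CPM) lay the other way. The Tfh list took 550 CPM in the KO-labelled library and 332 CPM in the WT-labelled library, with 2 of 7 passing genes higher, Il21 at 82.8 and 4.09 CPM and Cd200 at 123 and 54.9 CPM. The Treg list took 9762 and 7235 CPM in the same order, with 1 of 8 higher, Gpr83. The erythroid list took 0.684 CPM in the KO-labelled library and 3.49 CPM in the WT-labelled library, with 2 of its 5 genes without a count in the KO-labelled library. The list of resting T cell genes took 621 CPM in the KO-labelled library and 1031 CPM in the WT-labelled library; of its 8 genes 2 were lower, Klf2 and S1pr1, and 1 higher, Bach2, at 30.3 CPM in the KO-labelled library and 7.19 CPM in the WT-labelled library. The part of these differences in the solute carrier values was not tested.

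Levels within T cell subsets came from the single-cell library, which held 15002 barcodes and 106127466 UMIs. After cells with under 500 genes (835) or at least 10% mitochondrial UMIs (977 more) were left out, 13190 remained. Of these, 10410 had a T cell marker, no UMI of Cd8a or Cd8b1, and at most 1 UMI from each of 3 short sets of B cell, myeloid and plasma cell markers. Among the 10410, 5 gates were drawn by marker UMIs. A UMI of Foxp3, Cxcr5 and Pdcd1 each put 73 cells with 678756 UMIs in the Tfr gate. The Treg gate (Foxp3 without Cxcr5 or Pdcd1) held 1412 cells and the Tfh gate, in which Cxcr5 and Pdcd1 were seen but not Foxp3, 681. The Cycling gate (Mki67 and Top2a together) held 750 cells, which the other gates left out. The Resting gate (resting T cell markers, Ccr7 or Lef1 among them, and none of Foxp3, Cxcr5 and Pdcd1) held 2558. Median UMIs per cell were 7835 in Tfr, 5458 in Treg, 7073 in Tfh, 17974.5 in Cycling and 6076 in Resting cells. The Tfr gate also had the highest share of cells among the 10% of all cells with the highest doublet scores, 28.8%, against 10.8% in Treg, 6.90% in Tfh, 13.1% in Cycling and 6.37% in Resting. Summed B cell markers took 54.5 CPM in Tfr, 35.2 CPM in Treg, 60.1 CPM in Tfh, 22.9 CPM in Cycling and 22.02 CPM in Resting cells, and myeloid markers 165, 194, 151, 203 and 122 CPM in the same order. A single gene, Cst3, made up 146, 160, 131, 177 and 81.9 CPM of these myeloid sums. Of the B cell list Ms4a1 was at 0 in Tfr, whereas Cd22, the only one to reach 20 CPM in Tfr or Treg, had 26.5 CPM in Tfr and 6.01 CPM in Treg, and Pax5 had 5.89 and 0.462 CPM. The part of these markers in the solute carrier values was not tested. All gates come from 1 library, so every ratio between them compares sums of UMIs in that library, with intervals that cover counting error only.

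Of the 172 genes, 171 were found by symbol in the single-cell matrix and 63 reached 20 CPM in at least 1 gate, 49 of them in Tfr. At the depth of the Tfr gate 3 UMIs correspond to 4.42 CPM, and 14 of the genes had no UMI there, Slc1a1 among them, which had 1 UMI in Treg and 1 in Cycling cells. The gate with the highest level was Tfr for 24 of the 63 genes, Cycling for 13, Tfh for 12, Treg for 9 and Resting for 5. The Tfr sums are the smallest and vary most by counting error. The same count was not made over all genes, so it describes these sums and gives no trait of solute carriers. Among these 63 genes the widest spread over the 5 gates, 20.8-fold, belonged to Slc16a3, then 16.9-fold to Slc43a3, 11.2-fold to Slc15a3, 6.14-fold to Slc26a11, 6.10-fold to Slc22a15 and 5.49-fold to Slc2a3. The narrowest, 1.13-fold, belonged to the adaptor gene Slc4a1ap, followed by the zinc carrier Slc30a5 at 1.20-fold and Slc35a4 at 1.34-fold.

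**Figure D3:**
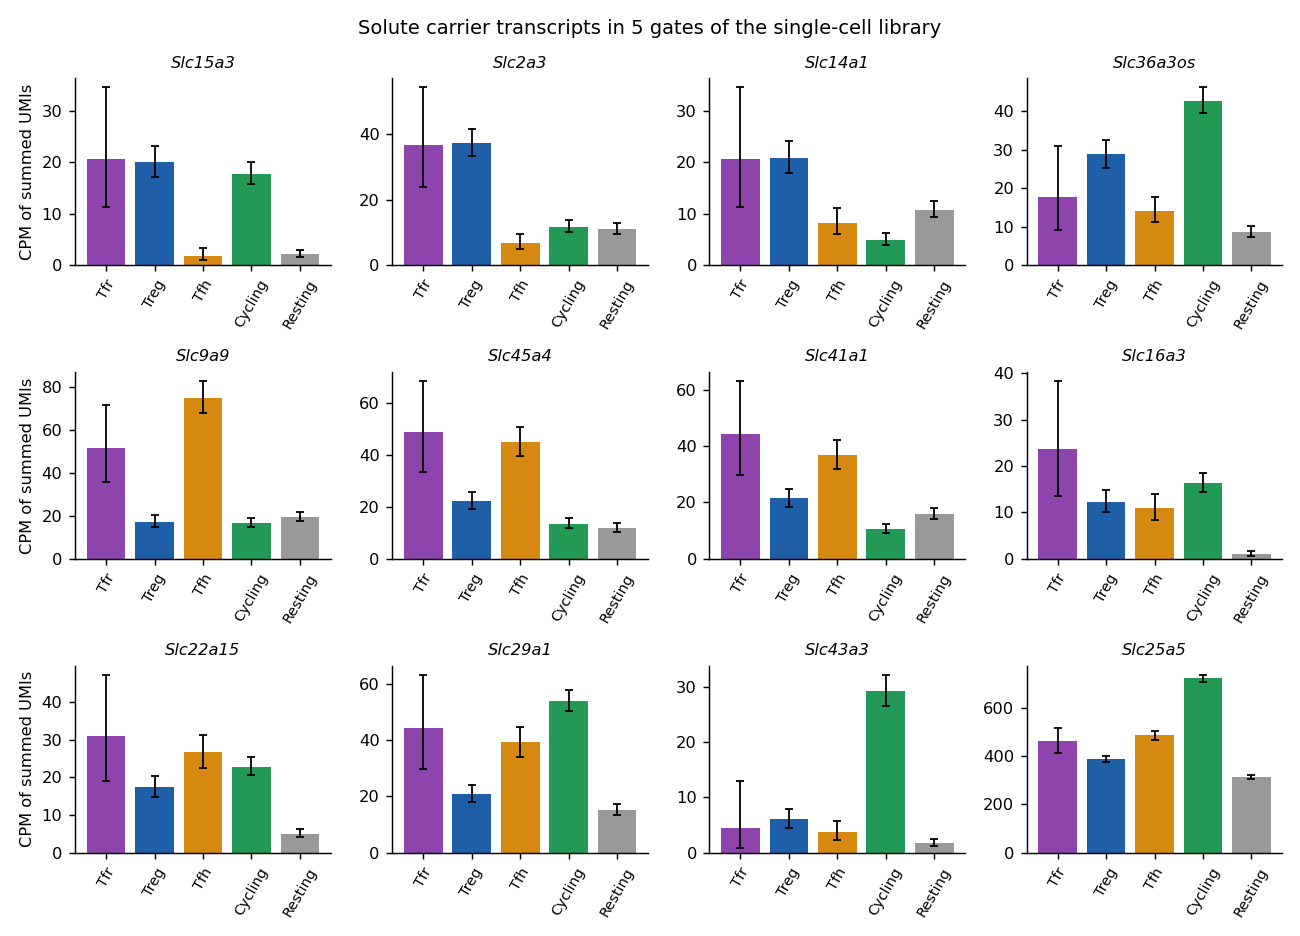
CPM of summed UMIs (y axes, each from 0) of 12 solute carriers in the Tfr, Treg, Tfh, Cycling and Resting gates (x axes); bars are 1 library's sums and error bars exact Poisson 95% intervals. Slc15a3 and Slc2a3 stand at 20.6 and 36.8 CPM in Tfr and at 1.84 and 6.80 CPM in Tfh, whereas Slc9a9 and Slc45a4 are high in Tfr and Tfh.

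Between Tfr and Treg gates, 6 of 53 solute carriers that passed 20 CPM in 1 of them were at least 2-fold higher in Tfr, 11.3%, where 3.22% of all genes were, and none was at least 2-fold lower, where 1.55% of all genes were. The median log2 ratio was 0.23 for the solute carriers and 0.10 for all genes. Slc9a9, an exchanger of sodium or potassium for protons in endosomes, had 35 UMIs and 51.6 CPM (35.9 to 71.7) in Tfr and 17.2 CPM (14.6 to 20.2) in Treg, 2.996-fold higher (2.01 to 4.35). Slc39a3 had 30.9 CPM in Tfr and 12.4 CPM in Treg, a ratio of 2.50 (1.49 to 4.02). The other 4 lay close above 2-fold: Slc45a4 with a ratio of 2.19, the folate carrier Slc19a1 with 2.15, Slc29a1 with 2.13 and Slc41a1 with 2.06. In the B cell gate of the same library (484 cells), Slc9a9 had 2.30 CPM and Slc45a4 10.9 CPM. Without the cells of the highest doublet scores 10 genes were higher in place of 6 and Slc39a3 was not among them; with a pseudocount of 5 CPM only Slc9a9 and Slc39a3 were. Of the 6 genes, 3 (Slc9a9, Slc39a3 and Slc19a1) passed the filter only through Tfr, the smallest gate, where they were high, and at a filter of 10 CPM 10 genes were higher and 4 lower, so that the counts describe these sums and carry no more.

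Between Tfr and Tfh gates, 5 of 57 were at least 2-fold higher in Tfr, 8.77%, where 2.64% of all genes were, and none at least 2-fold lower, where 1.12% of all genes were. All 5 passed the filter only through the Tfr gate, where they were high, which limits the count to a description; at 10 CPM 6 genes were higher and 1 lower. Slc15a3 had 14 UMIs and 20.6 CPM (11.3 to 34.6) in Tfr and 10 UMIs and 1.84 CPM (0.881 to 3.38) in Tfh, a ratio of 11.2 (4.64 to 28.2). Slc2a3 had 36.8 CPM in Tfr and 6.80 CPM in Tfh, 5.42-fold higher (3.13 to 9.24). These genes were close to their Treg levels in Tfr cells: Slc15a3 had 20.6 CPM in Tfr and 19.98 CPM in Treg, and Slc2a3 36.8 and 37.3 CPM in the same order. Slc14a1 had 20.6 CPM in Tfr and 8.27 CPM in Tfh (2.49-fold, 1.26 to 4.63), and 20.9 CPM in Treg. Slc16a3 and Slc19a1 had ratios of Tfr to Tfh of 2.17 and 2.16. Slc9a9, by contrast, had 51.6 CPM in Tfr and 74.98 CPM in Tfh, a log2 ratio of -0.53, so that its Tfr level lay between those of Tfh and Treg. At a filter of 50 CPM no gene passed 2-fold, and with a pseudocount of 5 CPM only Slc15a3 and Slc2a3 did; the call of Slc14a1 was lost without the cells of the highest doublet scores.

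The Treg gate differed from the Resting gate by at least 2-fold in 3 of 43 carriers, all higher in Treg, 6.98%, where 5.98% of all genes were higher and 0.704% lower. Slc2a3 had 37.3 CPM in Treg and 11.0 CPM in Resting cells, 3.38-fold higher (2.81 to 4.07), and the opposite-strand gene Slc36a3os 28.8 and 8.53 CPM. Slc2a3 was at 8.23 CPM in B cells. Slc15a3, at 19.98 CPM in Treg and 2.15 CPM in Resting cells, was just under the 20 CPM filter. It passed when 3 Treg cells holding nearly all of that gate's 24767 haemoglobin UMIs were left out, which moved none of the other calls of this contrast. Low in Treg, without reaching 2-fold, were the phosphate carrier Slc20a1, with 15.9 CPM in Treg and 27.9 CPM in Resting cells (1.75-fold lower), and the arginine carrier Slc7a1, with 14.1 and 20.6 CPM. The count of 3 was between 4 and 8 under 8 other settings and was 0 at a 50 CPM filter. The 3 genes passed the filter only through the Treg gate.

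Set against Resting cells, 12 of 49 carriers were at least 2-fold higher in Tfh, 24.5%, where 8.01% of all genes were, and none was lower, where 1.57% of all genes were. Their medians were close, at a log2 ratio of 0.36 for the carriers and 0.32 for all genes. Slc22a15, an organic cation and zwitterion carrier, had 26.6 CPM in Tfh and 5.07 CPM in Resting cells, 5.25-fold higher (3.99 to 6.95). Slc26a11, an anion transporter, had 21.3 and 4.24 CPM in the same order, Slc9a9 74.98 and 19.5 CPM, and Slc45a4 44.8 and 11.9 CPM, ratios of 5.03, 3.84 and 3.76. Of the 5 metal carriers that passed the filter, 3 were among the 12: Slc39a6, a zinc importer, at 34.2 CPM in Tfh and 11.0 CPM in Resting cells, Slc11a2 at 28.1 and 10.7 CPM, and Slc41a1 at 36.8 and 15.99 CPM. Also higher were the myo-inositol carrier Slc5a3, Slc43a2 (29.4 CPM in Tfh and 11.3 CPM in Resting cells), Slc29a1 and Slc25a39, with ratios between 2.16 and 2.88. The Tfr gate had levels near those of Tfh for several of these, 30.9 CPM for Slc22a15, 32.4 CPM for Slc43a2 and 44.2 CPM for Slc41a1, but only 11.8 CPM, from 8 UMIs, for Slc26a11 and Slc5a3. Of the 12 genes, 11 passed the filter only through the Tfh gate, where they were high.

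Cycling cells were compared with Resting cells over 42 carriers, of which 12 were at least 2-fold higher in Cycling, 28.6%, where 20.8% of all genes were, and 3 lower, 7.14%, where 5.37% of all genes were. Slc43a3, which carries purine nucleobases, had 438 UMIs and 29.2 CPM (26.6 to 32.1) in Cycling cells and 29 UMIs and 1.73 CPM (1.16 to 2.49) in Resting cells, 16.9-fold higher (11.6 to 25.5). Slc29a1 had 54.0 CPM in Cycling and 15.3 CPM in Resting cells, 3.54-fold higher (3.07 to 4.08). Nucleoside and nucleotide-sugar carriers gave 4 of 8 genes higher, with Slc35b1, which exchanges ATP and ADP across the endoplasmic reticulum, at 49.8 CPM in Cycling and 18.7 CPM in Resting cells, and Slc35b2, which brings the sulfate donor into the Golgi, at 30.7 and 12.8 CPM. Mitochondrial carriers gave 5 of 12 higher and 1 lower. Slc25a5 had 721 CPM in Cycling and 311 CPM in Resting cells, 2.32-fold higher (2.24 to 2.40), Slc25a4 had 367 and 161 CPM, and Slc25a24 and Slc25a39 had ratios of 2.41 and 2.21. Also higher were Slc36a3os, Slc22a15 and Slc19a1, with ratios of 5.01, 4.51 and 2.68. Of the 12 genes, 9 passed the filter only through the Cycling gate.

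None of the 8 amino acid carriers that passed the filter reached 2-fold between Cycling and Resting cells as a share of UMIs. Slc15a3, of the same class, was under the filter in both gates. At a filter of 10 CPM, Slc15a3 was at least 2-fold higher in Cycling cells. The same held with ribosomal, mitochondrial and antigen receptor genes left out of the totals. The median cell held 17974.5 UMIs in Cycling and 6076 UMIs in Resting, and amounts per cell were not compared. Slc3a2 had 81.5 CPM in Cycling and 69.0 CPM in Resting cells, Slc1a5 57.1 and 34.0 CPM, and Slc7a1 24.1 and 20.6 CPM. Slc7a5 stayed under the filter, at 12.4 CPM in Cycling and 6.74 CPM in Resting cells. Slc38a2, which cells raise when amino acids are scarce, had 79.3 CPM in Cycling and 149 CPM in Resting cells, 1.87-fold lower (1.75 to 2.01). Lower in Cycling cells by at least 2-fold were the choline transporter-like Slc44a2, at 37.5 and 90.8 CPM, the pyrimidine nucleotide carrier of mitochondria Slc25a36, at 8.14 and 22.7 CPM, and the potassium and chloride cotransporter Slc12a7, at 7.74 and 20.8 CPM. The glucose carriers Slc2a1 and Slc2a3 had 15.7 and 11.8 CPM in Cycling and 10.6 and 11.0 CPM in Resting cells. The amino acid response list had 3 of 9 genes higher and 1 lower, with sums of 783 CPM in Cycling and 387 CPM in Resting cells. With ribosomal, mitochondrial and antigen receptor genes left out of the totals, 8 carriers were lower in place of 3, and Slc25a4 and Slc25a5 were no longer past 2-fold.

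**Figure D4:**
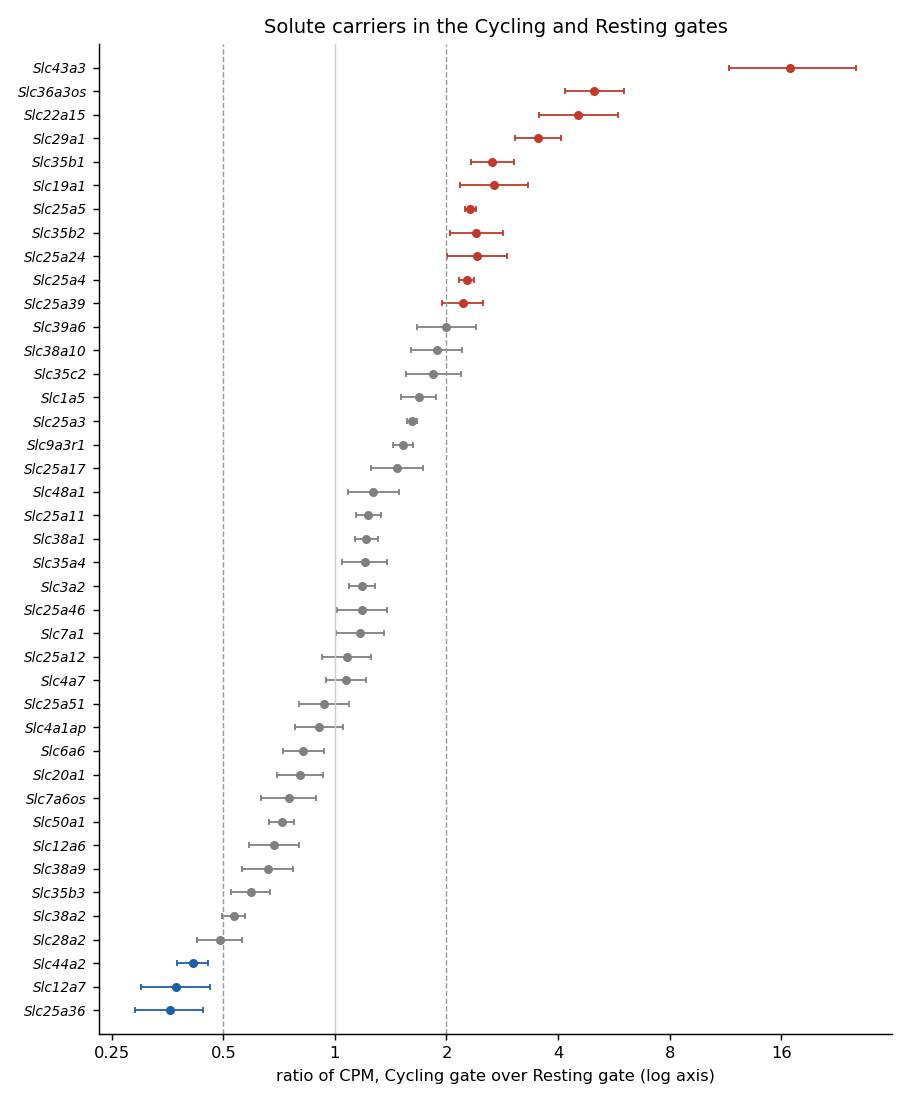
Ratio of CPM, Cycling gate over Resting gate (x axis, log scale), of 41 of the 42 solute carriers (y axis) that reached 20 CPM in either gate, with 1 not shown; points are ratios of sums in 1 library, bars exact conditional binomial 95% intervals, dashed lines mark raw ratios of 0.5 and 2, red points are higher and blue points lower by at least 2-fold on log2(CPM + 1). Slc43a3 lies farthest to the right at 16.9, and Slc25a36 farthest to the left at 0.358.

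Cycling cells with Foxp3 (301 cells) were also set against the Treg gate, which has Foxp3 without the cycling pair. Levels here too are shares of UMIs, with a median per cell of 17892 UMIs in cycling Foxp3-positive cells and 5458 UMIs in Treg. Of 49 carriers 2 were at least 2-fold higher in cycling Foxp3-positive cells, 4.08%, where 10.4% of all genes were, and 5 were lower, 10.2%, where 6.32% of all genes were. The higher genes were Slc43a3, with 26.9 CPM in cycling Foxp3-positive cells and 6.01 CPM in Treg (4.47-fold, 3.25 to 6.23), and Slc29a1, with 47.0 and 20.8 CPM (2.26-fold, 1.87 to 2.74). Lower were Slc14a1, at 7.21 CPM in cycling Foxp3-positive cells and 20.9 CPM in Treg, Slc2a3, at 13.4 and 37.3 CPM, Slc25a36, at 7.86 and 21.4 CPM, Slc44a2, at 32.4 and 73.0 CPM, and the concentrative nucleoside carrier Slc28a2, at 16.05 and 33.8 CPM. The call of Slc28a2 was lost with 2 UMIs of Foxp3 required, a mean of per-cell CPM, a pseudocount of 5 CPM, a filter of 50 CPM or Cycling cells of both kinds. Of the lower genes 4, all but Slc44a2, passed the filter only through the Treg gate. Slc15a3 and Slc2a3, both high in Treg against Resting cells, differed here: Slc15a3 had 25.5 CPM in cycling Foxp3-positive cells and 12.4 CPM in cycling Foxp3-negative cells, whereas Slc2a3 had 13.4 and 10.6 CPM in the same order.

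The genes at the ends of the bulk comparison were also read in the gates. Slc43a2 had 32.4 CPM (20.3 to 49.1) in Tfr, 23.4 CPM in Treg, 29.4 CPM in Tfh, 16.8 CPM in Cycling and 11.3 CPM in Resting cells, with intervals of Tfr, Treg and Tfh that overlap. Slc16a3 had 23.6 CPM (13.5 to 38.3) in Tfr, 12.2 CPM (10.0 to 14.8) in Treg, 10.8 CPM in Tfh, 16.3 CPM in Cycling and 1.13 CPM (0.683 to 1.77) in Resting cells, and 0.659 CPM in B cells. It was thus near the B cell level in Resting cells and above it in the other 4 gates. Slc14a1 was highest in Tfr and Treg, at 20.6 and 20.9 CPM, then 10.8 CPM in Resting, 8.27 CPM in Tfh and 4.94 CPM in Cycling cells, and was 10.5 CPM in B cells. Slc43a1 had 11.8 CPM (8 UMIs) in Tfr, 1.27 CPM in Treg, 9.92 CPM in Tfh, 1.20 CPM in Cycling and 0.656 CPM in Resting cells, under the filter everywhere. Slc7a10 had 13.3 CPM (9 UMIs) in Tfr, 2.77 CPM in Treg, 5.51 CPM in Tfh, 1.34 CPM in Cycling and 0.597 CPM in Resting cells. The zinc carrier Slc30a4 was near the floor, with 1 UMI in Tfr. The scaffold gene Slc9a3r1 had 166 CPM in Tfr, 163 CPM in Treg, 103 CPM in Tfh, 160 CPM in Cycling and 105 CPM in Resting cells.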

How the data were processed

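Of 11 samples, 3 were used; the other 8 were not analysed here. Trizol RNA and the NEBNext Ultra kit gave the bulk libraries, and the 10x Genomics 3′ kit the single-cell one, per the labels' protocols. Tools named per the submitters' processing notes, without roles, include TopHat, Cufflinks, Seurat 2 and Cell Ranger 2.1.0, with mm9 and mm10 as builds; the matrix header names Cell Ranger 3.1.0. For the bulk table, neither the counter nor its strand setting is stated in the sources used here. The authors deposited whole-number counts per gene for each bulk library and UMI counts per gene and barcode. The WT column's name holds a number absent from the sample title.

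CPM were computed from column totals, and log2 ratios with a pseudocount of 1 CPM. Genes were counted at 2-fold or more among those with at least 5 CPM in 1 bulk library, or 20 CPM in 1 of the 2 gates compared. Intervals are exact Poisson or exact conditional binomial, at 95%. TMM factors came from edgeR 4.0.16 and doublet scores from scanpy 1.11.5, whose threshold marked only 2 cells and was not used; cells with the highest 10% of scores were left out as an alternative. Bulk reads carry no molecular identifiers, so intervals cover counting error only. Barcodes were unique. Genes named were drawn from the 15 highest and 15 lowest bulk ratios and the 5 highest and 5 lowest of each gate contrast. Others came from the 3 highest in Tfr of each class, the genes nearest the minimum and a list of T cell transporters. Not all of these are given, and the lowest genes of Tfr over Treg and of Tfh over Resting are not set out. Slc7a10, Slc30a5, Slc35a4 and Slc4a1ap in the gates, and others named as ends of a range, were chosen after their values were seen. Classes follow the carrier family. The genes, classes and lists were chosen with earlier results of these data known. The size rule and ratio intervals of the bulk comparison were tested on simulated data, and the other steps were not. Some genes are counted but not reported here by name.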

Additional observations from a re-analysis of the deposited data

How the results depend on the processing

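No paired analysis was possible because each group has 1 library, and no replicate could be left out. Of 142 counts recomputed, 97 stayed within 1.5 times the reported one. Of 521 recomputed ratios, all of genes already past 2-fold, none changed direction and 472 moved by less than counting error. Settings that changed only the CPM filter leave a ratio the same by construction, and starting past 2-fold makes a reversal unlikely. The ratio counts are therefore no measure of robustness. In bulk, the count of carriers higher in the KO-labelled library was 2, and 4 under TMM, median-of-ratios scaling or a pseudocount of 0.1 CPM, 0 with a pseudocount of 5 CPM, 1 at 20 CPM and 17 at 1.5-fold; Slc14a1 and Slc30a4 were kept by the scalings. The count lower was 11, and 6 under either scaling, which lost Slc25a51, Slc2a8, Slc39a3, Slc8b1 and Slc9a5, 4 with a pseudocount of 5 CPM, 6 at 20 CPM and 33 at 1.5-fold. For Tfr over Treg, the 6 higher were 10 without the highest doublet scores, 10 at 10 CPM, 1 at 50 CPM and 2 with a pseudocount of 5 CPM; the 0 lower were 1 with 2 UMIs of Foxp3 required, with totals without ribosomal, mitochondrial and receptor genes or with a mean of per-cell CPM, and 4 at 10 CPM. For Tfr over Tfh, the 5 higher were 0 at 50 CPM and 2 with a pseudocount of 5 CPM, and the 0 lower were 1 without the highest doublet scores, with 2 UMIs of Foxp3 or at 10 CPM. For Treg over Resting, the 3 higher were 7 under 5% mitochondrial UMIs, without the highest doublet scores, with 2 UMIs of Foxp3 or with a mean of per-cell CPM, 5 with a Treg gate without Cxcr5 only, 6 with the reduced totals, 8 at 10 CPM and 0 at 50 CPM, and the 0 lower were 1 with the reduced totals. For Tfh over Resting, the 12 higher were 1 at 50 CPM, and the 0 lower were 1 with the reduced totals or at 10 CPM. For Cycling over Resting, the 12 higher were 3 at 50 CPM and 19 at 10 CPM, and the 3 lower were 8 with the reduced totals and 1 at 50 CPM. For cycling Foxp3-positive cells over Treg, the 2 higher were 0 at 50 CPM and 4 at 10 CPM, and the 5 lower were 9 with the reduced totals or at 10 CPM and 1 at 50 CPM. A filter at 50 CPM tests fewer genes by construction; the cause of the other shifts was not tested. Leaving out cells with 10 or more haemoglobin UMIs was chosen after seeing the data. The Tfr gate, with 73 cells, limits the precision of every value in it.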
